A study of Mus musculus with 6 samples.

Results

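The genes described here encode potassium, calcium and sodium channel subunits. They were taken by symbol from the deposited table of RNA-seq counts, as the rows named Kcn, Cacna, Cacnb or Cacng followed by their letters, or Scn followed by a number and a or b, with a mean raw count of 20 or more over the 6 libraries. Of 18512 rows in the table, 109 carried such a symbol and 44 of these reached the minimum. Among the 44 were 28 potassium channel genes, 10 calcium channel genes and 5 sodium channel genes, and the remaining one was Kcnq1ot1, a non-coding RNA transcribed antisense to the potassium channel gene Kcnq1. By role, 31 encoded pore-forming subunits and 12 accessory subunits. Just inside the minimum were Kcnh2, with a mean raw count of 20, and Kcnk4, with 21, and just outside it were Kcnj9 and Cacng7, each with 19.7.

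The RNA came from NMuMG cells, an epithelial line from normal mouse mammary gland that undergoes an epithelial-mesenchymal transition (EMT) when given TGF-β. One group received DMSO, the vehicle, another TGF-β at 5 ng/ml, and the third TGF-β at 5 ng/ml with 2APB at 50 uM. The study used 2APB to inhibit store-operated calcium entry (SOCE), and the paper proposes that it also raises calcium entry through the calcium channel ORAI3. Each group had 2 replicates, and no sequenced group received 2APB alone, so that an effect of 2APB can be read only on top of TGF-β. The study's methods call the replicates biological, and all cells were of a single line, so that p-values measure the spread between samples of that line.

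Voltage-gated sodium and calcium channels open when the membrane depolarizes and let sodium or calcium into the cell, whereas most potassium channels let potassium out and hold the membrane at a negative potential. In an epithelial cell that fires no action potentials, potassium channels set the driving force for calcium entry through store-operated channels, and low-voltage-activated (T-type) calcium channels can open near the resting potential. The pore is formed by a large subunit in sodium and calcium channels and by an assembly of smaller subunits in potassium channels. Accessory subunits bind the pore and change its gating or the amount at the cell surface. RNA levels do not measure currents, and in RNA from a whole culture more RNA per cell and more cells that express a gene cannot be told apart.

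The libraries held 71840570 to 79473182 gene counts each, and every deposited value was even, so that the smallest count above 0 was 2. Counts were scaled by edgeR's TMM factors to the mean library and are called normalized counts. Where the mean over the libraries reached 20 normalized counts, which held for 13353 genes and all 44 channel genes, the gene was tested in 1 model of the 3 groups by edgeR's quasi-likelihood F-test, and a gene was called at a Benjamini-Hochberg FDR of 0.05 or less over all genes tested. Levels of different genes are compared only as RPKM, normalized counts per kilobase of transcript and per 1000000 counts of the library. Of the 6 listed epithelial markers, E-cadherin (Cdh1) and the keratins Krt8 and Krt18 were abundant in every library. Cldn7 had fewer than 6 normalized counts in each, and Epcam had a mean RPKM of 0.586. With TGF-β over DMSO, Cdh1 and Epcam were called lower (log2 fold change -0.78 and -1.42) and Krt8 and Krt18 higher (0.66 and 0.92). Krt7 was not called in that comparison. All 6 listed markers of the mesenchymal state and the TGF-β response were higher in both treated groups than in DMSO. Of the neuronal markers, 6 of 7 had fewer than 20 normalized counts in every library, and the exception, Syt1, fell from 68.8 and 55.8 in DMSO to 0 and 1.97 in TGF-β+2APB. The 4 endothelial markers reached no test, with summed normalized counts of 9.83 to 49.3 per library. Of 8 listed markers of cardiac and skeletal muscle, 5 were in the table, and their normalized counts summed to 476 and 519 in DMSO, 9858 and 9562 in TGF-β, and 11110 and 10720 in TGF-β+2APB, nearly all from the troponin gene Tnnt2. The muscle genes Myh7, Actn2 and Ryr2 stayed below 12 normalized counts in every library. Acta1 rose from 9.83 and 8.26 in DMSO to 162 and 99.6 in TGF-β and 91.1 and 67.1 in TGF-β+2APB. Tnnt2 and Acta1, the muscle markers tested, were called higher in both treated groups than in DMSO. Replicate 2 of TGF-β+2APB stood apart in leukocyte markers. The normalized counts of the 4 listed leukocyte genes found in the table summed to 452 and 331 in DMSO, 148 and 104 in TGF-β, and 77.2 and 1813 in TGF-β+2APB, with Itgam at 1004 and Ptprc at 742 in that last library. Cd3e was at or near 0 throughout, and the part of the muscle and leukocyte RNAs in the channel results was not tested.

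Members called in the same direction by TGF-β and again by the addition of 2APB were Cacna1g, Kcnk12 and Kcnn3, which rose, and Cacna1e, Kcnb2, Kcns3 and Scn8a, which fell. RefSeq promoter windows on the GRCm38.p6 assembly were matched by symbol for 27 of the 44 members, and among these were Kcnk12, Kcnn3, Cacna1e, Kcns3 and Scn8a. Sequence is shown for those of them whose window overlapped no annotated exon. The 250 bases before the transcript start, read 5′ to 3′ on the strand of the gene, are given for Kcnn3 (chr3:89519914-89520163, plus strand) and Kcnk12 (chr17:87797995-87798244, minus strand), which rose in both steps, and for Scn8a (chr15:100870395-100870644, plus strand), which fell in both. Capitals mark matches on either strand to the motifs CAGAC (Smad), CAGGTG (Snail E-box), GGAATG (TEAD) and TGANTCA (AP-1).
Kcnn3: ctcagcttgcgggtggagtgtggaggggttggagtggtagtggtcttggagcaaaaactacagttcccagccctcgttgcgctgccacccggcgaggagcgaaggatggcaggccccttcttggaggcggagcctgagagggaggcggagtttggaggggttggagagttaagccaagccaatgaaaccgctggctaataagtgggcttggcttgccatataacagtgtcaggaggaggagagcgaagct
Kcnk12: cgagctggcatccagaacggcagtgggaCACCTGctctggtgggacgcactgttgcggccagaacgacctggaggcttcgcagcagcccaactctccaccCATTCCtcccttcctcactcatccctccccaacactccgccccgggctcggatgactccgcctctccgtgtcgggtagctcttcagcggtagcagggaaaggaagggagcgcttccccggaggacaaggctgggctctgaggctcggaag
Scn8a: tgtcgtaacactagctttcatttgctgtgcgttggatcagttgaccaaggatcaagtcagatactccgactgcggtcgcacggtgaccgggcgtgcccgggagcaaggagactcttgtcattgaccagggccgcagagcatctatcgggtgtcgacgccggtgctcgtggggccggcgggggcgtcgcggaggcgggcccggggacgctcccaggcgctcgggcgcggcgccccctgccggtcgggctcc
The Kcnk12 window held 1 Snail E-box and 1 TEAD match, both on the opposite strand, and neither the Kcnn3 nor the Scn8a window held any of the 4 motifs. The Cacna1e window and the first of 2 Kcns3 windows, which overlap annotated exons and are not shown, each held 1 Smad and 1 TEAD match. The transcript starts that follow these windows lie 158581 bp (Cacna1e) and 214 bp (Kcns3) inside the genes as annotated in GENCODE. Scn8a had 2 RefSeq windows, and the one shown, the first along the gene, is followed by a transcript start 787 bp inside the gene as annotated in GENCODE. The other Scn8a window held none of the 4 motifs either. Their GC contents were 58.8% for Kcnn3, 64.8% for Kcnk12 and 68.0% for Scn8a, against a median of 52.4% over 32851 RefSeq windows, and the Scn8a window held 30 CG pairs against a median of 6. Over the 42 windows of the 27 members, CAGAC was present in 52.4%, CAGGTG in 19.0%, GGAATG in 21.4% and TGANTCA in 2.4%. The shares over all windows were 42.2%, 17.2%, 12.6% and 6.7% in the same order, and motif matches overlapped in 1 member window. A match is a string of letters and not a measured site.

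Channel gene levels covered a wide range. Over the 6 libraries the mean RPKM was 42.7 for Cacnb3, a calcium channel beta subunit, 20.8 for Kcnn4, the intermediate-conductance calcium-activated potassium channel, 11.9 for the T-type calcium channel gene Cacna1h, and 10.2 for Cacna2d1, the alpha2delta-1 subunit bound by gabapentin. The T-type gene Cacna1g followed with 7.21, and Scn8a, the sodium channel Nav1.6 known from neurons, with 4.75 RPKM. Kcns3 had a mean RPKM of 2.09 and Cacnb2 of 1.86, and 35 members were below 1. By mean raw count, 7 members were above 1000, 15 between 100 and 1000, and 22 between 20 and 100. Of the 65 symbols left out, 50 had a mean raw count of 10 or less.

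**Figure D1:**
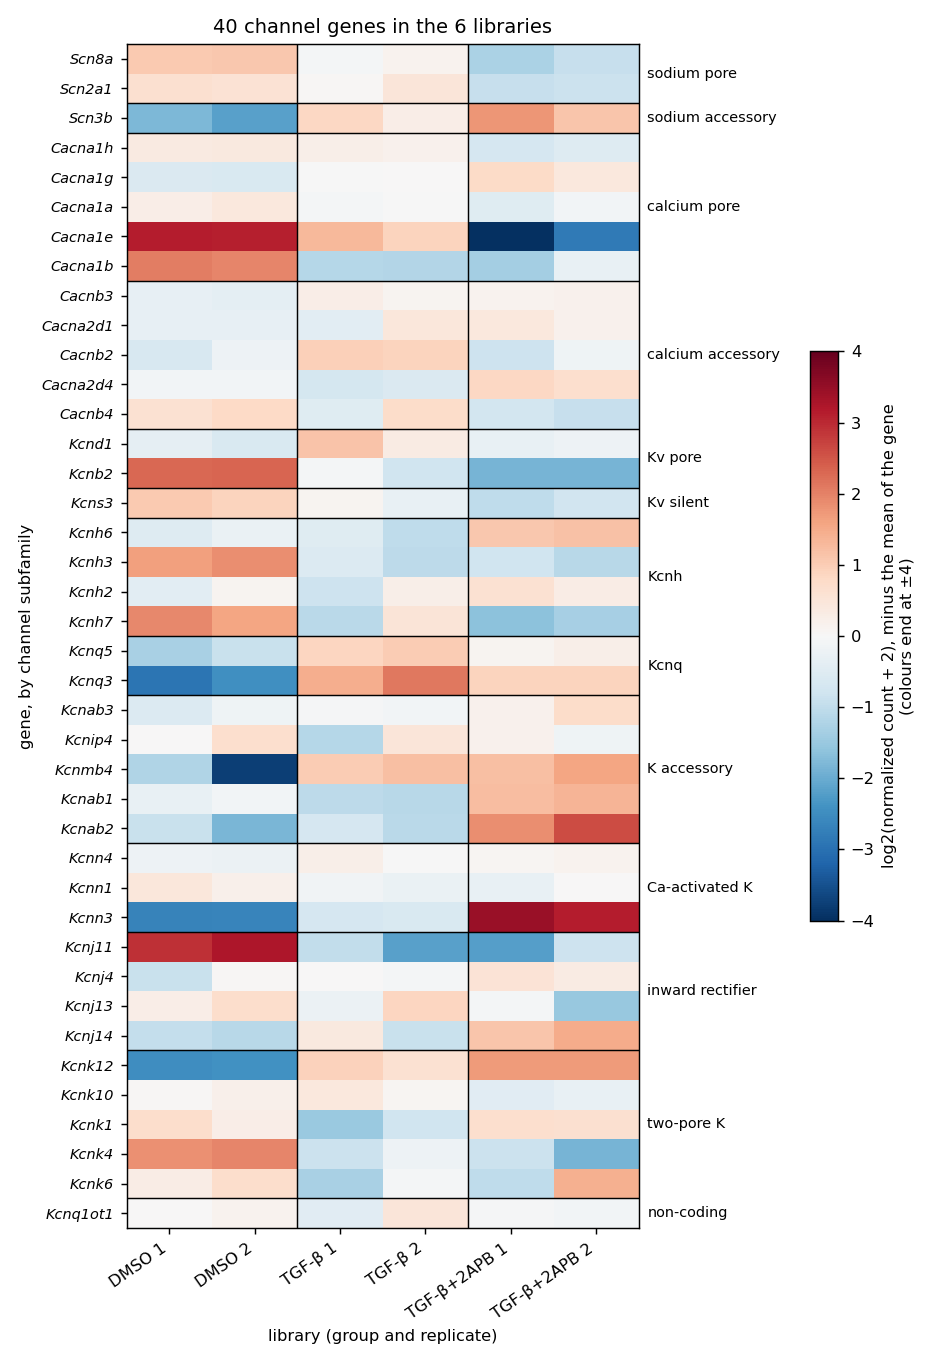
Each row is 1 of 40 of the 44 channel genes, grouped by subfamily, and each column 1 library; colour gives log2(normalized count + 2) minus the mean of that gene over the 6 libraries, red above and blue below. Kcnq3, Kcnk12 and Kcnn3 are lowest in DMSO, and Cacna1e, Kcnb2 and Kcnj11 are highest there.

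TGF-β was compared with DMSO to see how the induction of EMT changed these genes, and 24 of the 44 members were called. Of these, 13 (29.5%) were higher, where 21.8% of all genes tested were called higher, and 11 (25%) were lower, where 19.7% of all genes were called lower. The median log2 fold change of the members was -0.09 and that of all genes -0.01, and the median size of the change, without its sign, was 0.98 for the members and 0.35 for all genes. When 2APB was added to TGF-β, 9 members (20.5%) were called higher than with TGF-β alone, beside 6.58% of all genes, and 7 (15.9%) were called lower, beside 10.9%. The median size of the log2 change was 0.87 for the members and 0.23 for all genes. Between TGF-β+2APB and DMSO, 17 members (38.6%) were called higher and 13 (29.5%) lower, beside 25.6% and 27.2% of all genes, and the median size of the log2 change was 1.25, beside 0.44. The median member had a mean raw count of 101. The SD of the log2 difference between replicates was 0.52 for members and 0.3 for all genes tested in DMSO. It was 0.68 and 0.53 in TGF-β, and 0.73 for both in TGF-β+2APB. The part of this spread in the sizes of change was not tested. TGF-β with DMSO and TGF-β+2APB with DMSO share the DMSO libraries, and TGF-β with DMSO and TGF-β+2APB with TGF-β share the TGF-β libraries, so that these counts are not independent. Without replicate 2 of TGF-β+2APB, 7 members were called higher and 5 lower than with TGF-β, and 15 higher and 12 lower than with DMSO.

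In all, 34 members were called in at least 1 comparison. The share of all genes called in at least 1 comparison was not computed, so this count cannot be set beside it. Among the 10 called in none were Cacna2d1, Kcnh2, Kcnip4, Kcnj4, Kcnj13, Kcnk6, Kcnk10, Kcnn1 and Kcnq1ot1. Replicates of some members lay far apart. After adding 2 to each normalized count, the replicates differed 2-fold or more for 1 member in DMSO, 8 in TGF-β and 5 in TGF-β+2APB, and in 6 of the 8 the higher TGF-β library was replicate 2. The calls that remained at an FDR of 0.05 or less in every alternative fit that tested the gene, each library left out included, were 12 of 24 for TGF-β with DMSO, 6 of 16 for TGF-β+2APB with TGF-β and 21 of 30 for TGF-β+2APB with DMSO. How many calls of all genes remained in this way was not computed. The calls of Kcnh3 and Kcnk4 against DMSO are counted as remaining, although neither gene was tested without either DMSO library. The losses given for single genes leave aside the fit with the replicate number as a block, which is given with the other processing choices.

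**Figure D2:**
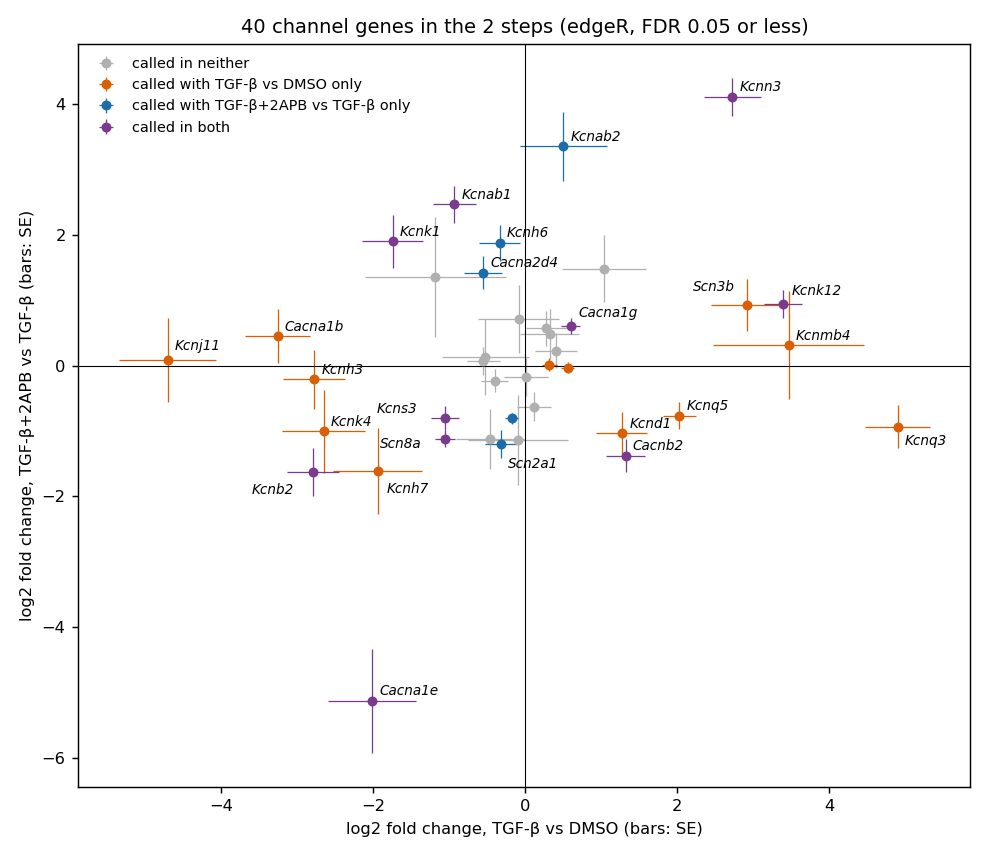
Each point is 1 of 40 of the 44 members, with the log2 fold change of TGF-β over DMSO on the horizontal axis, that of TGF-β+2APB over TGF-β on the vertical axis, SE as bars on both, and colour for the step in which the gene was called; both axes use the same TGF-β libraries. Of those drawn, Kcnq3 lies farthest right at 4.90, Kcnj11 farthest left at -4.70, Kcnn3 highest at 4.12 and Cacna1e lowest at -5.13.

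Among the sodium channel genes, Scn8a fell in both steps. Scn8a (chr15:100869858-101045938, plus strand) had normalized counts of 7225 and 7388 in DMSO, 3278 and 3777 in TGF-β, and 1435 and 1817 in TGF-β+2APB. The 3 groups did not overlap, and each treatment step lowered the gene by about the same factor. Its log2 fold changes were -1.05 ± 0.13 (edgeR FDR = 0.00224) for TGF-β over DMSO, -1.12 ± 0.14 (edgeR FDR = 0.00712) for TGF-β+2APB over TGF-β, and -2.17 ± 0.14 (edgeR FDR = 0.00013) for TGF-β+2APB over DMSO. These 3 calls remained in every alternative fit. Another sodium channel pore gene, listed as Scn2a1 and now named Scn2a, encodes Nav1.2. Its normalized counts were 307 and 295 in DMSO, 204 and 278 in TGF-β, and 103 and 106 in TGF-β+2APB, so that the TGF-β+2APB libraries were lowest and did not overlap the others. Addition of 2APB changed it by -1.20 ± 0.21 on the log2 scale (edgeR FDR = 0.0184), a call lost in the fit of the 4 libraries compared, without either DMSO library and without replicate 1 of TGF-β+2APB, and the log2 difference of -0.32 between TGF-β and DMSO was not called.

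Sodium channel beta subunits bind the pore subunit and change its gating. Scn3b had normalized counts of 5.90 and 4.13 in DMSO, 46.8 and 31.1 in TGF-β, and 91.1 and 57.2 in TGF-β+2APB. Over DMSO it changed on the log2 scale by 2.92 ± 0.48 (edgeR FDR = 0.0054) with TGF-β and 3.85 ± 0.48 (edgeR FDR = 0.00136) with TGF-β+2APB, and all libraries of the treated groups lay above those of DMSO.

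Of 7 listed partners of sodium channels outside the family, 3 were tested. None was called higher in any comparison, 2 were lower with TGF-β than with DMSO, and all 3 were lower with TGF-β+2APB than with DMSO. The shares of all genes tested that were called lower in these 2 comparisons were 19.7% and 27.2%. Fgf13, which binds the intracellular end of the sodium channel pore subunit, had normalized counts of 1008 and 1021 in DMSO, 493 and 363 in TGF-β, and 61.4 and 118 in TGF-β+2APB. As with Scn8a, the groups did not overlap and each step lowered it, with log2 fold changes of -1.24 (edgeR FDR = 0.0223) and then -2.25 (edgeR FDR = 0.0114). Nedd4l, a ubiquitin ligase that marks sodium channels for removal from the membrane, had a log2 fold change of -2.19 with TGF-β (edgeR FDR = 0.000197). Ank3, whose product ankyrin-G anchors sodium channels, changed by -0.45 when 2APB was added (edgeR FDR = 0.0123).

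Among the calcium channel pore genes, the T-type genes Cacna1h and Cacna1g had the highest levels per length, and they went in opposite directions. Cacna1g rose in both steps, while Cacna1h fell when 2APB was added. Cacna1h (chr17:25374285-25433783, minus strand) had normalized counts of 9336 and 9531 in DMSO, 8514 and 8176 in TGF-β, and 4528 and 5003 in TGF-β+2APB. The libraries of TGF-β+2APB were lowest, and the log2 fold change over TGF-β was -0.81 ± 0.08 (edgeR FDR = 0.00494), which remained in every alternative fit. The log2 difference of -0.18 between TGF-β and DMSO was not called. Exons of Cacna1h overlap those of Tpsg1 on the other strand, and the strand setting of the counting is not given in the sources used here.

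Cacna1g (chr11:94408391-94474198, minus strand) had normalized counts of 2889 and 2855 in DMSO, 4282 and 4439 in TGF-β, and 7414 and 5840 in TGF-β+2APB, with no overlap between groups. On the log2 scale it rose by 0.60 ± 0.12 in each step (edgeR FDR = 0.0115 for TGF-β over DMSO and 0.0254 for TGF-β+2APB over TGF-β) and 1.21 ± 0.12 for TGF-β+2APB over DMSO (edgeR FDR = 0.00065). The second step was no longer called in a fit of only the 4 libraries compared or without replicate 1 of TGF-β+2APB, and both steps were lost without either DMSO library. The ratio of Cacna1g to Cacna1h in RPKM was 0.304 and 0.294 in DMSO, 0.494 and 0.533 in TGF-β, and 1.61 and 1.15 in TGF-β+2APB. In the TGF-β+2APB libraries Cacna1g was thus the more abundant of the pair, which was chosen after its values were seen. The summed RPKM of the 10 calcium channel pore genes in the table was 21.1 and 21.4 in DMSO, 21.0 and 20.6 in TGF-β, and 19.2 and 17.7 in TGF-β+2APB. Of that sum, Cacna1h made up 70.4% and 70.9% in DMSO and 37.4% and 45.0% in TGF-β+2APB, and Cacna1g 21.4% and 20.9% in DMSO and 60.2% and 51.6% in TGF-β+2APB.

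**Figure D3:**
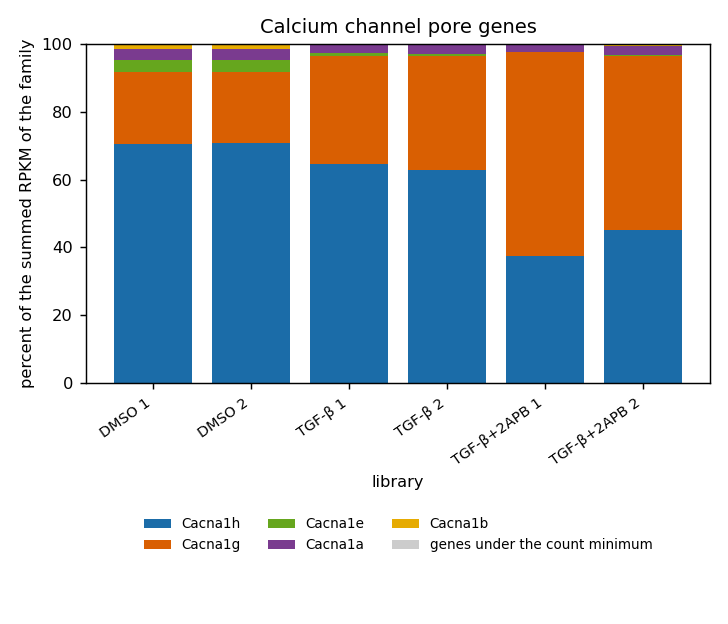
Stacked bars give, for each library, the percent of the summed RPKM of the 10 calcium channel pore genes in the table, with grey for genes below the count minimum. Cacna1h goes from 70.4% to 37.4% between the first DMSO and the first TGF-β+2APB library, and Cacna1g from 21.4% to 60.2%.

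The 3 high-voltage-activated calcium channel genes were lower with TGF-β+2APB than with DMSO. Cacna1e (chr1:154390731-154884501, minus strand), the R-type channel, had normalized counts of 859 and 853 in DMSO, 242 and 183 in TGF-β, and 0 and 11.8 in TGF-β+2APB. The groups did not overlap, and the gene was close to absent when 2APB was added. The log2 fold change was -2.01 ± 0.58 (edgeR FDR = 0.0388) for TGF-β over DMSO, -5.13 ± 0.80 (edgeR FDR = 0.0133) for TGF-β+2APB over TGF-β, and -7.15 ± 0.82 (edgeR FDR = 0.000989) for TGF-β+2APB over DMSO. Of these, the call against DMSO with TGF-β+2APB remained in every alternative fit. The call with TGF-β was lost without any one of the 4 DMSO and TGF-β libraries and in both DESeq2 fits and with no filter, and the call between TGF-β+2APB and TGF-β was lost without either DMSO library, in DESeq2 with its prior and in the fit of the 4 libraries compared.

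Cacna1b (chr2:24603887-24763152, minus strand), the N-type channel of nerve terminals, had normalized counts of 228 and 215 in DMSO, 23.4 and 22.8 in TGF-β, and 19.8 and 43.4 in TGF-β+2APB. It was about 9.54-fold lower with TGF-β, or -3.25 ± 0.43 on the log2 scale (edgeR FDR = 0.0025), and the 2 treated groups overlapped. Cacna1a, the P/Q-type channel, had normalized counts of 393 and 432 in DMSO, 306 and 320 in TGF-β, and 232 and 302 in TGF-β+2APB. It was called lower with TGF-β+2APB than with DMSO, by a log2 fold change of -0.63 ± 0.18 (edgeR FDR = 0.0284), and this was lost without either DMSO library or without replicate 1 of TGF-β+2APB. Of the 5 calcium channel pore genes, 4 were lower and 1 higher with TGF-β+2APB than with DMSO, where 27.2% of all genes tested were called lower and 25.6% higher.

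Calcium channel beta subunits bring the pore to the membrane and speed its opening. Cacnb3, the member with the highest mean RPKM of the 44, had normalized counts of 6944 and 6727 in DMSO, 10660 and 9488 in TGF-β, and 9764 and 9918 in TGF-β+2APB. It rose by a log2 fold change of 0.56 ± 0.08 with TGF-β (edgeR FDR = 0.00387) and was still 0.53 ± 0.08 higher than in DMSO with TGF-β+2APB (edgeR FDR = 0.00337), and the first of these calls was lost without replicate 2 of DMSO. Cacnb2 was the one member called higher with TGF-β and then lower on addition of 2APB. Its normalized counts were 403 and 558 in DMSO, 1227 and 1177 in TGF-β, and 360 and 562 in TGF-β+2APB. The TGF-β libraries stood above all others, while the DMSO and TGF-β+2APB libraries overlapped. In log2 terms the change was 1.32 ± 0.25 (edgeR FDR = 0.00944) for TGF-β over DMSO and -1.38 ± 0.25 (edgeR FDR = 0.02) for TGF-β+2APB over TGF-β. The first of these was lost without replicate 1 of DMSO and the second without replicate 1 of TGF-β+2APB.

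Cacnb4 had normalized counts of 88.4 and 101 in DMSO, 40.9 and 97.5 in TGF-β, and 33.7 and 29.6 in TGF-β+2APB, and was called lower with TGF-β+2APB than with DMSO (log2 fold change -1.58 ± 0.47, edgeR FDR = 0.0324), a call lost without any one of the 4 libraries compared. Of the alpha2delta genes, Cacna2d4 had 72.7 and 72.3 normalized counts in DMSO, 46.8 and 51.9 in TGF-β, and 139 and 126 in TGF-β+2APB. Both TGF-β+2APB libraries stood above all others, with a log2 fold change of 1.42 ± 0.25 over TGF-β (edgeR FDR = 0.0179) that was lost in the fit of the 4 libraries compared, without either DMSO library and without replicate 1 of TGF-β+2APB. Cacna2d1 was called in no comparison, and its TGF-β replicates lay far apart, at 4231 and 7707 normalized counts. Of 7 listed regulators of calcium channels, 5 were tested and 2 were higher with TGF-β, Stac, an adaptor of L-type channels, with a log2 fold change of 3.64 (edgeR FDR = 0.000693), and Rrad, a small GTPase that lowers calcium channel activity, with 0.86 (edgeR FDR = 0.0124). None of the 5 was called in either direction when 2APB was added. Among all genes tested, 21.8% were called higher with TGF-β, and 6.58% higher and 10.9% lower on addition of 2APB.

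The calcium-activated potassium channel gene Kcnn3 gave the largest rise of any member when 2APB was added. It encodes the small-conductance channel SK3, which opens when intracellular calcium rises. Kcnn3 (chr3:89520164-89675132, plus strand) had 2 raw counts in each DMSO library, 14 in each TGF-β library, and 274 and 224 in TGF-β+2APB. In normalized counts these were 1.97 and 2.07, 13.6 and 14.5, and 271 and 221, with no overlap between groups. The ratio of normalized counts of TGF-β+2APB to TGF-β was 17.5 (95% exact interval 10.2 to 32.5), and that of TGF-β to DMSO was 6.98 (95% exact interval 1.6 to 63.3). Because all values were even, these intervals were computed from halved counts, and they cover counting error only. The log2 fold change fitted by edgeR was 2.73 ± 0.38 (edgeR FDR = 0.00294) for TGF-β over DMSO, which depends on the few DMSO counts, and 4.12 ± 0.29 (edgeR FDR = 0.00309) for TGF-β+2APB over TGF-β. All 3 calls of Kcnn3 remained in every alternative fit that tested the gene, and its promoter window is one of the 3 shown. For TGF-β over DMSO, Kcnn3 was not tested in the fit of the 4 libraries compared, and a mean of at least 100 left it out of every comparison.

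Kcnn4, of the same family, was far more abundant per length and changed little. Its normalized counts were 4961 and 4938 in DMSO, 6724 and 5636 in TGF-β, and 6131 and 6377 in TGF-β+2APB. The log2 fold change was 0.32 ± 0.10 with TGF-β (edgeR FDR = 0.0494), which was lost without either DMSO library, without either TGF-β+2APB library, with no filter or in the fit of the 4 libraries compared. It was 0.34 ± 0.10 with TGF-β+2APB over DMSO (edgeR FDR = 0.034), which was lost without any one of those 4 libraries. In RPKM the ratio of Kcnn3 to Kcnn4 was 0.000173 and 0.000183 in DMSO and 0.0194 and 0.0152 in TGF-β+2APB, so that Kcnn3 stayed the lesser of the pair throughout. Kcnn1, the third member of the family, was not called, with log2 differences from DMSO of -0.55 in TGF-β and -0.48 in TGF-β+2APB.

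Tandem-pore potassium channels carry the background leak that sets the resting potential. Kcnk12 (chr17:87745801-87797994, minus strand), which encodes THIK-2, rose in both steps, with normalized counts of 13.8 and 14.5 in DMSO, 166 and 133 in TGF-β, and 285 and 290 in TGF-β+2APB. The groups did not overlap. The log2 fold change was 3.39 ± 0.25 (edgeR FDR = 0.000339) for TGF-β over DMSO and 0.95 ± 0.21 (edgeR FDR = 0.0355) for TGF-β+2APB over TGF-β, and the second of these was lost in the fit of the 4 libraries compared and without any single library other than replicate 1 of TGF-β. Kcnk1, which encodes TWIK-1, fell with TGF-β and rose again with 2APB. It had normalized counts of 51.1 and 37.2 in DMSO, 9.74 and 16.6 in TGF-β, and 49.5 and 49.3 in TGF-β+2APB, so that only the TGF-β libraries were low. Its log2 fold change was -1.74 ± 0.40 (edgeR FDR = 0.0184) in the first step, lost without either DMSO library, and 1.90 ± 0.40 (edgeR FDR = 0.0298) in the second, lost in the fit of the 4 libraries compared and without any single library other than replicate 2 of TGF-β.

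Kcnk4, the mechanosensitive channel TRAAK, had normalized counts of 49.1 and 53.7 in DMSO, 5.84 and 10.4 in TGF-β, and 5.94 and 1.97 in TGF-β+2APB. All treated libraries were low, and the log2 fold change was -2.65 ± 0.54 (edgeR FDR = 0.0119) with TGF-β and -3.66 ± 0.59 (edgeR FDR = 0.0036) with TGF-β+2APB over DMSO. Exons of Kcnk4 overlap those of Catsperz on the same strand, so that reads could be shared. Kcnk6 had normalized counts of 27.5 and 37.2 in DMSO, 7.79 and 20.8 in TGF-β, and 9.90 and 63.1 in TGF-β+2APB, and its highest library was the one with the high leukocyte markers. Kcnk6 was called in no comparison. Kcnj2, an inward rectifier gene below the minimum, had 60 raw counts in that same library and 10 or fewer in every other. Kcnk10 was not called, with log2 differences between -0.63 and 0.12.

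Inward rectifiers pass potassium near the resting potential. Kcnj11 (chr7:46093953-46100764, minus strand) encodes the pore of the ATP-sensitive channel, which couples metabolism to membrane potential, and gave the largest fall of any member with TGF-β. Its normalized counts were 350 and 434 in DMSO, 21.4 and 8.30 in TGF-β, and 7.92 and 23.7 in TGF-β+2APB. Treated libraries overlapped each other and lay far below DMSO. Against DMSO the log2 fold change was -4.70 ± 0.64 (edgeR FDR = 0.00289) with TGF-β and -4.62 ± 0.64 (edgeR FDR = 0.002) with TGF-β+2APB, and it was 0.08 ± 0.64 between the treated groups. Kcnj14 was called higher with TGF-β+2APB than with DMSO (log2 fold change 2.52 ± 0.55, edgeR FDR = 0.0109), from normalized counts of 11.8 and 10.3 to 55.4 and 73.0, and this was lost without either DMSO library. Kcnj4 and Kcnj13 were not called.

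**Figure D4:**
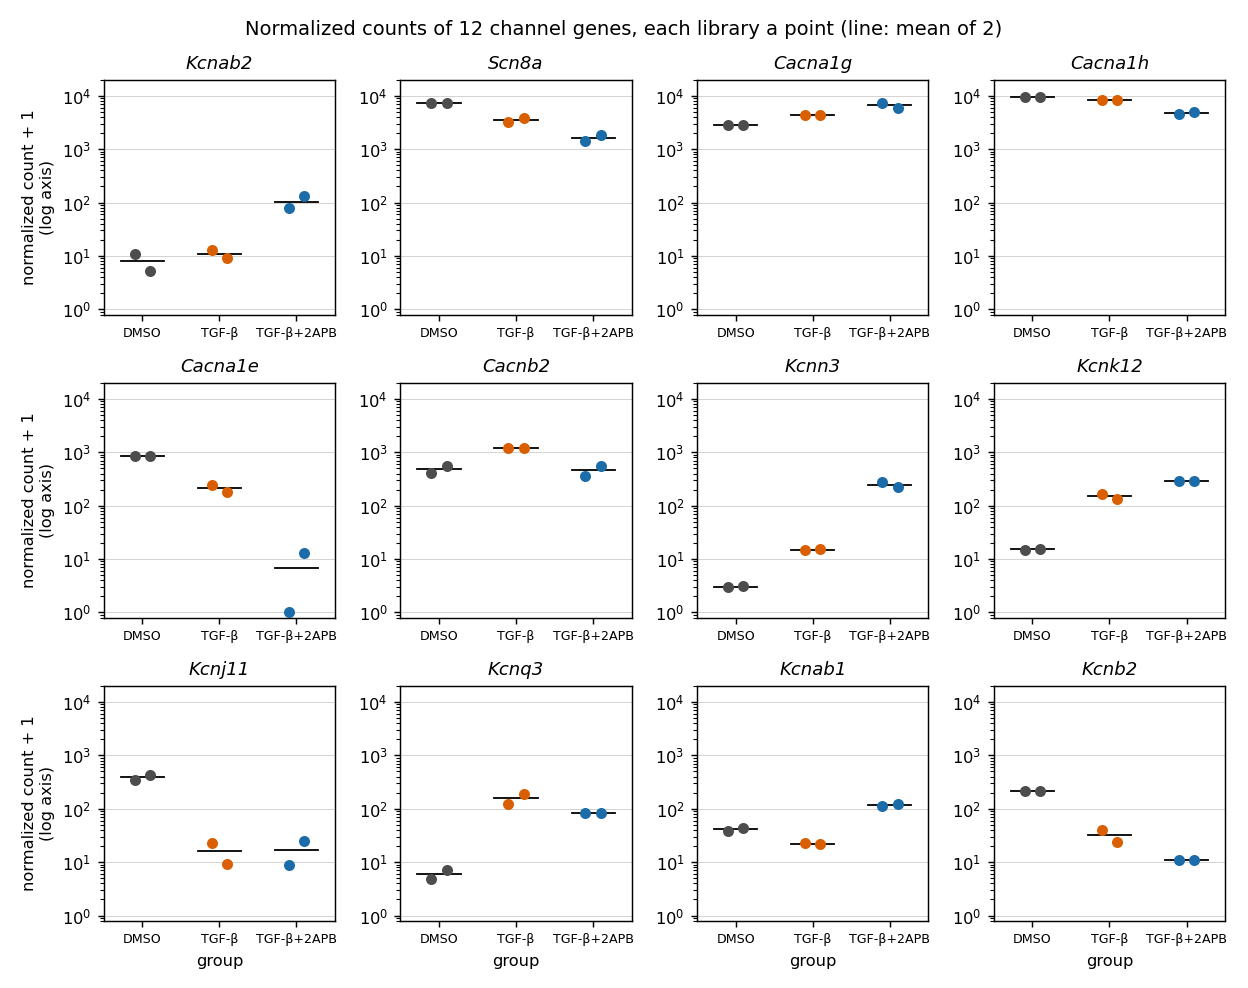
Each panel is 1 channel gene and each point 1 library, with normalized count + 1 on a log axis, the 3 groups side by side and a line at the mean of the 2 replicates. Kcnq3 goes from 3.93 and 6.20 in DMSO to 121 and 189 in TGF-β, Cacnb2 is highest in TGF-β, and Kcnn3 reaches 271 and 221 in TGF-β+2APB.

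Voltage-gated potassium channels of the Kv families repolarize the membrane. Kcnb2 (chr1:15287254-15723750, plus strand), the Kv2.2 channel, had normalized counts of 212 and 217 in DMSO, 39.0 and 22.8 in TGF-β, and 9.90 and 9.87 in TGF-β+2APB. Kcns3, a subunit that forms no channel alone and modifies channels of the Kv2 group, had 837 and 764 in DMSO, 442 and 330 in TGF-β, and 202 and 241 in TGF-β+2APB. Both fell in both steps, and in neither did the groups overlap. Kcnb2 had a log2 fold change of -2.79 ± 0.34 (edgeR FDR = 0.00194) in the first step and -1.63 ± 0.37 (edgeR FDR = 0.0349) in the second, and Kcns3 of -1.05 ± 0.19 (edgeR FDR = 0.00713) and -0.80 ± 0.19 (edgeR FDR = 0.04). The second step of either gene was lost in the fit of the 4 libraries compared and without any single library other than replicate 2 of TGF-β, and that of Kcns3 also with no filter. Without replicate 1 of DMSO the first step of Kcns3 was lost as well. Kcnd1, the transient Kv4.1 channel, had normalized counts of 80.6 and 68.2 in DMSO, 230 and 131 in TGF-β, and 85.1 and 90.8 in TGF-β+2APB. It rose with TGF-β by 1.28 ± 0.34 on the log2 scale (edgeR FDR = 0.0278), which was lost without either DMSO library or without replicate 1 of TGF-β, and the log2 difference of -1.04 on addition of 2APB was not called (edgeR FDR = 0.0902).

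Of the 4 Kcnh genes, the family of the heart channel hERG, 2 were lower with TGF-β and another was higher on addition of 2APB. Among all genes tested, 19.7% were called lower with TGF-β and 6.58% higher on addition of 2APB. Kcnh6 had normalized counts of 78.6 and 95.04 in DMSO, 81.8 and 56.0 in TGF-β, and 245 and 262 in TGF-β+2APB. The DMSO and TGF-β libraries overlapped, and the log2 fold change of TGF-β+2APB over TGF-β was 1.88 ± 0.28 (edgeR FDR = 0.0115), which remained in every alternative fit. Kcnh3 went from 51.1 and 59.9 normalized counts in DMSO to 9.74 and 6.23 in TGF-β and 7.92 and 5.92 in TGF-β+2APB. Its log2 fold change with TGF-β was -2.77 ± 0.41 (edgeR FDR = 0.00387), and its exons overlap those of Mcrs1 on the other strand. Kcnh7 had 92.4 and 72.3 in DMSO, 9.74 and 33.2 in TGF-β, and 5.94 and 7.89 in TGF-β+2APB. With TGF-β its log2 fold change was -1.94 ± 0.59 (edgeR FDR = 0.045), lost with no filter, without either DMSO library or without replicate 1 of TGF-β, and -3.55 ± 0.66 (edgeR FDR = 0.00613) with TGF-β+2APB over DMSO. The exons of Kcnh7 overlap those of Gca on the other strand. Kcnh2 itself, at the edge of the minimum, was not called.

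Kcnq genes encode the slow M-type channels that steady the membrane near rest, and Kcnq3 and Kcnq5 can form channels together. Kcnq3 (chr15:65986387-66286642, minus strand) had normalized counts of 3.93 and 6.20 in DMSO, 121 and 189 in TGF-β, and 81.2 and 80.9 in TGF-β+2APB. Kcnq5 had 84.5 and 114 in DMSO, 382 and 430 in TGF-β, and 228 and 249 in TGF-β+2APB. For both genes DMSO was lowest, TGF-β highest and TGF-β+2APB between them, with no overlap. With TGF-β the log2 fold change was 4.90 ± 0.42 (edgeR FDR = 0.000603) for Kcnq3 and 2.03 ± 0.21 (edgeR FDR = 0.00113) for Kcnq5. The lower values with 2APB did not pass the threshold, with log2 differences from TGF-β of -0.93 ± 0.34 for Kcnq3 (edgeR FDR = 0.117) and -0.77 ± 0.20 for Kcnq5 (edgeR FDR = 0.0548). In RPKM the ratio of Kcnq5 to Kcnq3 fell from 36.4 and 31.1 in DMSO to 5.36 and 3.86 in TGF-β.

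Of the 5 potassium channel accessory genes, 1 was called higher and 1 lower with TGF-β, 2 higher and none lower on addition of 2APB, and 4 higher and none lower between TGF-β+2APB and DMSO. Among all genes tested, 21.8% were called higher and 19.7% lower with TGF-β, and 6.58% higher and 10.9% lower on addition of 2APB. Between TGF-β+2APB and DMSO these shares were 25.6% and 27.2%. Of the 4 calls, that of Kcnab2 remained in every alternative fit that tested it, while those of Kcnab1, Kcnab3 and Kcnmb4 did not. The call of Kcnab1 was lost without replicate 1 of DMSO. The Kvbeta subunits, encoded by Kcnab1, Kcnab2 and Kcnab3, bind the intracellular side of Kv channels. Kcnab1 (chr3:65109384-65378223, plus strand) had normalized counts of 37.3 and 43.4 in DMSO, 21.4 and 20.8 in TGF-β, and 113 and 122 in TGF-β+2APB. Kcnab2 had 9.83 and 4.13 in DMSO, 11.7 and 8.30 in TGF-β, and 77.2 and 130 in TGF-β+2APB. For both genes the TGF-β+2APB libraries lay far above all others. The log2 fold changes over TGF-β were 2.47 ± 0.28 for Kcnab1 (edgeR FDR = 0.00654) and 3.36 ± 0.53 for Kcnab2 (edgeR FDR = 0.0139). Both calls remained in every alternative fit that tested the gene, the one without replicate 2 of TGF-β+2APB included. Exons of Kcnab2 overlap those of Gm16334 on the same strand, so that reads could be shared. The fall of Kcnab1 with TGF-β, -0.93 ± 0.28 on the log2 scale (edgeR FDR = 0.0441), was lost without any one of the 6 libraries, in both DESeq2 fits and in the fit of the 4 libraries compared. Kcnab3 had 120 and 155 normalized counts in DMSO, 170 and 164 in TGF-β, and 198 and 298 in TGF-β+2APB, and was called higher with TGF-β+2APB than with DMSO (log2 fold change 0.85 ± 0.27, edgeR FDR = 0.0429), which was lost with library size scaling, with no filter, without either DMSO library and without replicate 2 of TGF-β+2APB.

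Kcnmb4, the beta4 subunit of the large-conductance calcium-activated channel, had 9.83 and 0 normalized counts in DMSO, 52.6 and 60.2 in TGF-β, and 61.4 and 78.9 in TGF-β+2APB. It was higher in every treated library, with log2 fold changes over DMSO of 3.47 ± 0.998 (edgeR FDR = 0.0377) and 3.78 ± 1.0 (edgeR FDR = 0.0225), and the first was lost with no filter and without either TGF-β library. Kcnip4, which encodes a Kv4 binding protein, was not called. Of 6 listed partners of Kv4 and large-conductance channels, 2 were in the table and the 1 tested was not called. Kcnq1ot1, the non-coding RNA, had 4876 and 5351 normalized counts in DMSO, 3510 and 6819 in TGF-β, and 4668 and 4496 in TGF-β+2APB, and its TGF-β libraries lay on either side of all others. The log2 fold change with TGF-β was 0.01 with both of them, 0.421 without replicate 1 and -0.543 without replicate 2. Because the counting is not stated to use strand, reads of Kcnq1ot1 and of the exons of Kcnq1 that lie within it cannot be told apart.

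Other genes that move these ions were read from fixed lists. Of 8 tested genes of related cation channels, 1 was higher and 2 lower with TGF-β, and 1 was higher and 4 lower with TGF-β+2APB than with DMSO. Among all genes tested, 21.8% were called higher and 19.7% lower with TGF-β. With TGF-β+2APB over DMSO these shares were 25.6% and 27.2%. Hcn4, the pacemaker channel, rose by a log2 fold change of 1.71 with TGF-β (edgeR FDR = 0.00222) and a further 1.21 with 2APB (edgeR FDR = 0.0166). Scnn1a, a subunit of the epithelial sodium channel, changed by -1.33 with TGF-β (edgeR FDR = 0.00316), and Tpcn1, a channel of endosomes and lysosomes, by -0.89 on addition of 2APB (edgeR FDR = 0.0165). Of 9 tested genes of the sodium-potassium pump, which maintains the gradients these channels use, 3 were higher and 5 lower with TGF-β, and 1 was higher on addition of 2APB. On that addition 6.58% of all genes tested were called higher. Atp1b1, a beta subunit, changed by -1.03 with TGF-β (edgeR FDR = 0.000814) and by 1.25 on addition of 2APB (edgeR FDR = 0.00326), from normalized counts of 9895 and 10200 to 25990 and 21930. Among the FXYD regulators of the pump, Fxyd5 changed by 4.62 (edgeR FDR = 5.86e-05) and Fxyd6 by -4.18 (edgeR FDR = 0.000739) on the log2 scale with TGF-β.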

How the data were processed

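RNA of NMuMG cells given DMSO, TGF-β or TGF-β+2APB (2 replicates each) was selected with oligo-dT and sequenced by the authors. The deposited values are raw counts per gene that the authors made with FastQC, TopHat and featureCounts. The submitters' processing notes name TopHat2 2.0.13, FastQC 0.11.2, DESeq2 1.6.1 and the build mm10, whereas the paper's text names hg19, and the symbols are mouse symbols. Annotation and strand setting are not given in the sources used here. The paper's results and methods differ on when 2APB was given relative to TGF-β.

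TMM scaling and the quasi-likelihood F-test came from edgeR 4.0.16 (limma 3.58.1, R 4.3.3), without covariates, and the standard error of a log2 fold change is its size over √F. The biological coefficient of variation was 17.4%. RPKM used annotated transcript lengths. Of 18512 rows, 18237 were matched by symbol to GENCODE on GRCm38. Plots and sequence searches used Python 3.11.15, pandas 2.3.3 and matplotlib 3.10.9. Simulated counts with known changes were used to check the code.

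The members, the lists of partners and markers, and the tests were chosen with earlier results of these data known. Values in every library are given for the 5 largest called rises and the 5 largest called falls of each comparison, the member of highest mean RPKM in each subfamily, and members called in opposite directions in the 2 steps. Results for some genes within these rules are not reported here. Other members given in this way were chosen after their values were seen. The alternatives tried were DESeq2 1.42.0 with and without its fold change prior, RLE or library size scaling, no filter or a mean of 100, the replicate number as a block, only the 4 libraries compared, halved counts, a limit of 0.01 on the FDR or of 1 on the size of the log2 fold change, member minimums of 10 (with the filter of the fit also at 10) and 50, and each library left out.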

Additional observations from a re-analysis of the deposited data

How the results depend on the processing

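Counts of called members were within 1.5 times those reported with DESeq2 with or without its prior, RLE or library size scaling, no filter, halved counts, members from a mean count of 10 and a limit of 1 on the size of the log2 fold change. With each library left out in turn, TGF-β over DMSO gave 8 to 13 members higher (8 without either DMSO library) and 4 to 12 lower (4 without replicate 1 of DMSO and 5 without replicate 2). TGF-β+2APB over TGF-β gave 4 to 9 higher and 3 to 8 lower, the lowest of each without either DMSO library or without replicate 1 of TGF-β+2APB. TGF-β+2APB over DMSO gave 11 to 18 higher, the lowest without replicate 1 of DMSO, and 9 to 13 lower. A mean of at least 100, which tests fewer members, gave 8 higher and 4 lower for TGF-β over DMSO, 3 higher for TGF-β+2APB over TGF-β, and 8 higher and 7 lower for TGF-β+2APB over DMSO. An FDR of 0.01 gave 8 higher and 6 lower, 2 and 2, and 11 higher in the same order. Members from a mean count of 50, which are fewer, gave 7 lower for TGF-β over DMSO. Fitting only the 4 libraries compared gave 4 higher and 3 lower for TGF-β+2APB over TGF-β, from fewer libraries.

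Same-numbered replicates did not deviate together: across genes, which are no independent replicates, Pearson's r of the replicate differences was 0.156 (DMSO, TGF-β), -0.479 (DMSO, TGF-β+2APB) and -0.247 (TGF-β, TGF-β+2APB). With the replicate number as a block, 4 members were higher for TGF-β+2APB over TGF-β, and the other counts stayed within 1.5 times; the cause was not tested. Calls lost in that fit were, for TGF-β over DMSO, those of Cacna1e, Kcnab1, Kcnh7, Kcnmb4 and Kcnn4 (edgeR FDR 0.0612 to 0.0923), for TGF-β+2APB over TGF-β, those of Cacna1g, Cacna2d4, Kcnb2, Kcnk1, Kcnk12 and Kcns3 (edgeR FDR 0.0529 to 0.0866), and for TGF-β+2APB over DMSO, those of Cacna2d4, Kcnab3, Kcnmb4 and Kcnn4 (edgeR FDR 0.0502 to 0.0637). For Kcnq1ot1, the log2 fold change with each library left out ran from -0.543 to 0.421 for TGF-β over DMSO and from -0.572 to 0.385 for TGF-β+2APB over TGF-β, and the 2 TGF-β libraries decided its calls. Without replicate 2 of TGF-β it was called lower (-0.543, edgeR FDR = 0.00329) and then higher (0.385, edgeR FDR = 0.0153), and without replicate 1 higher (0.421, edgeR FDR = 0.0103) and then lower (-0.572, edgeR FDR = 0.0106). Few counts limit the size of a fold for members such as Kcnn3 in DMSO.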
